A study of Mus musculus with 19 samples.

Results

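Cells of the mouse embryonic nephrogenic zone that did not stain for SIX2 were compared with the whole, unsorted zone. The comparison rests on 6 of the 19 libraries of the series: 3 of sorted SIX2- cells and 3 of unsorted nephrogenic zone cells (NZC), numbered 1 to 3 in each group. All 6 came from kidneys of CFW mice, an outbred strain, at embryonic stage E16.5, and their allele is entered as NA, so neither group is labelled with a reporter. Their titles carry the name MARIS, a method in which cells are fixed, stained for a protein inside the cell, sorted on it and then used for RNA. RNA kits for fixed material and for small cell numbers are both listed without being tied to libraries, and whether the unsorted cells were fixed and stained like the sorted cells is not stated in the labels. Genes entered the comparison when 3 or more of the 6 libraries had a value of 1 or higher, which kept 12233 of 20162 gene names. Values are RPKM, reads scaled to the length of the gene model and to sequencing depth, and differences are of log2(RPKM + 1), SIX2- minus NZC. A gene was called when its Benjamini-Hochberg adjusted p, over all 12233 genes, was under 0.05 in limma's moderated test. Nothing in the labels ties a library to its own animals or litter, so the p-values measure spread between samples that may be technical.

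The nephrogenic zone is the outer rim of the growing kidney, where new nephrons arise. Nephron progenitors, marked by the transcription factor SIX2, cap the branching tips of the ureteric epithelium and turn into epithelial vesicles that become glomeruli and tubules. Around them lie FOXD1-expressing stromal progenitors, vessels with their mural cells, macrophages and circulating blood cells. Sorting for the absence of SIX2 therefore removes a cell type from the mixture, and the unsorted zone still holds the cells that were kept. In bulk RNA, fewer cells of a type and less RNA per cell cannot be told apart.

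NZC library 2 stood apart. Its estimated depth was 3.10 (in units of 1e+06 reads), against 26.5 to 43.2 in the other 5 libraries. For this estimate, the commonest product of value and transcript length among values under 1 was taken to be 1 read. NZC 2 listed 33.6% of genes at 0, against 12.4% to 14.6%. It also held RNAs that lack a long poly(A) tail at levels far above the others: Rmrp, the RNA of the ribonuclease MRP complex, was at 9814 against 1.58 to 23.4, and Rpph1, the RNA of ribonuclease P, at 4588 against 0.983 to 8.11. The ribosomal precursor Rn45s was at 762 against 2.12 to 22.7, and the nuclear RNA Malat1 at 683 against 27.0 to 61.5. The part of this library's RNA makeup in the results below was not tested, and the overall counts and the list medians are repeated without it. Correlations of log2 values between libraries, across genes, lay between 0.836 and 0.870 for NZC 2 and at 0.934 or above among the other 5.

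Against the whole zone, SIX2- cells held less of the proteoglycan Vcan and of the progenitor gene Nell1, and more of the retinoid-binding Crabp1. The transcripts of Vcan (12427 bases) and Nell1 (6617) are long and that of Crabp1 (802) is short. Over protein-coding genes the median difference fell with transcript length, as given below. The part of length in these calls was not tested. The largest differences, those of adult globins, were not called in the fit of the 6 libraries without a block. With the replicate number as a block in the same 6 libraries they were called, and Hbb-b1 and Hbb-bs also without NZC 2. Few genes passed the adjusted threshold in the fit of the 6 libraries. Over all 6 libraries 2 genes were called higher in SIX2- cells (0.0163% of those tested) and 12 lower (0.0981%). Without NZC 2, 35 were called higher (0.286%) and 107 lower (0.875%), and the 14 genes of the 6-library fit were all among them. The median log2 difference of all tested genes was 0.10 with 6 libraries and 0.035 without NZC 2. At an unadjusted p under 0.05 there were 1167 genes higher (9.54%) and 1085 lower (8.87%). Complete separation, in which every SIX2- library lay on the same side of every NZC library, was met by 2077 genes upward (17.0%) and 1522 downward (12.4%), or 2880 (23.5%) and 2490 (20.4%) without NZC 2. These shares are the background for the counts of named groups below. The calls depended on single libraries. Leaving out NZC 1, SIX2- 1 or SIX2- 2 left 0 calls with limma (at an unadjusted p under 0.05, 1445 higher and 1013 lower, 591 and 716, and 413 and 638 genes), leaving out SIX2- 3 left 1 gene lower and leaving out NZC 3 left 8 lower. With the replicate number as a block in the fit, 1 gene was called higher and 13 lower, and 3 of the 14 calls remained: Vcan, Nell1 and 3110039I08Rik.

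**Figure D1:**
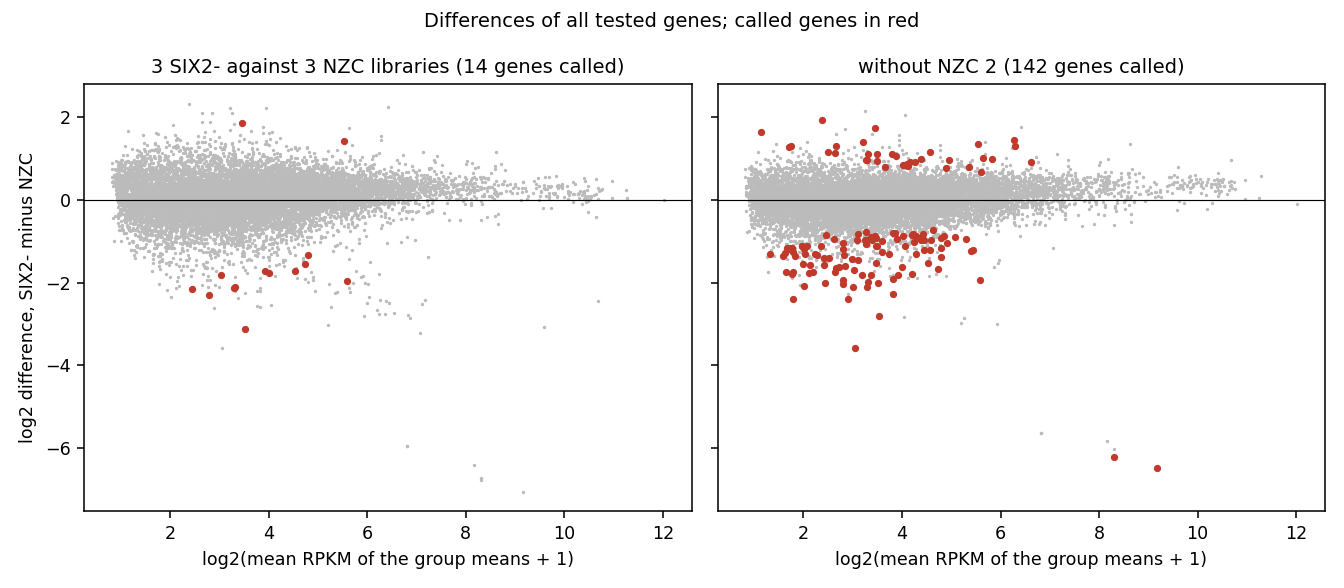
Each point is a tested gene; the horizontal axis is log2 of its mean RPKM + 1 over the means of the SIX2- and NZC groups (6 libraries), and the vertical axis the log2 difference, SIX2- minus NZC. Red points are called genes, 14 with all libraries and 142 without NZC 2, and the points near and below -6 are the adult globins.

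Six2 (chr17:85684277-85688274, minus strand, GRCm38) was at 65.2, 68.1 and 166 RPKM in NZC libraries 1, 2 and 3 and at 4.43, 7.59 and 46.8 in SIX2- libraries 1, 2 and 3. All 3 SIX2- values lay below all 3 NZC values, and in both groups library 3 was the highest. The log2 difference was -2.81 (SE 0.79, adjusted p = 0.161, limma), and -3.01 (SE 0.94, adjusted p = 0.125) without NZC 2, so Six2 itself was not called in either. Over all alternatives its adjusted p ran from 0.0114 to 0.571. For reference, the 3 libraries of sorted SIX2+ cells of the same strain and stage held 301, 295 and 458. Six2 in SIX2- library 3 thus came near NZC libraries 1 and 2, and Cited1, a marker of the most immature progenitors, was also highest there, at 22.9 against 4.06 and 4.41 in SIX2- libraries 1 and 2.

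Nephron progenitor genes lay mostly on the same side as Six2. Of 26 genes on their list, which holds Six2, 23 were tested, and 10 separated completely downward (background 12.4%), 0 upward and 13 overlapped. Of the 10, 1 was under 1 in every SIX2- library, so that the limit for testing had fixed its direction. Their median log2 difference was -0.61, or -0.88 without NZC 2, beside 0.10 and 0.035 for all tested genes. Nell1 (chr7:49974864-50866608), which encodes a secreted protein with EGF-like repeats, was the only member called: 13.2, 15.5 and 16.3 in NZC against 1.74, 2.74 and 3.63 in SIX2- cells, a log2 difference of -2.14 (SE 0.24, adjusted p = 0.0460). The groups stood well apart, and SIX2+ cells held 31.2, 35.4 and 38.0.

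Crym, which encodes a thyroid hormone-binding crystallin, had the largest difference on the list. It was at 58.4, 67.9 and 63.6 in NZC and 4.76, 4.36 and 15.05 in SIX2- cells (log2 difference -3.02, SE 0.40, adjusted p = 0.0514). Eya1, the phosphatase and transcriptional partner of SIX2, was at 20.6, 16.2 and 43.6 in NZC and 1.58, 2.51 and 8.0 in SIX2- cells (-2.55, SE 0.53, adjusted p = 0.0992). Spock2, a matrix proteoglycan, was at 39.3, 39.1 and 111 in NZC and 3.58, 5.74 and 25.0 in SIX2- cells (-2.60, SE 0.69, adjusted p = 0.148). In all 3 genes the groups were apart, and SIX2- library 3 was the highest of its group, as for Six2. NZC library 3 was likewise the highest of its group for Eya1 and Spock2. With the replicate block both were called lower (adjusted p = 0.0489 each, with ranges of 0.00332 to 0.474 and 0.00380 to 0.555 over all alternatives).

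Other members gave smaller differences. Osr1, a transcription factor of the intermediate mesoderm, was at 12.8, 10.2 and 21.2 in NZC and 2.86, 3.06 and 8.65 in SIX2- cells (-1.50, adjusted p = 0.159), and Rspo1, a Wnt agonist, at 21.1, 18.6 and 33.5 against 9.69, 12.3 and 12.4 (-0.99, adjusted p = 0.131). Both separated completely without being called. Cited1 (8.35, 14.8 and 94.3 against 4.06, 4.41 and 22.9) and Meox1, a homeobox gene (5.15, 6.42 and 21.04 against 2.40, 2.57 and 7.65), overlapped between groups, and NZC library 3 was far above the other NZC libraries. Gdnf, the ligand that draws the ureteric tip toward the progenitors, was at 16.1, 14.2 and 28.4 in NZC and 18.8, 20.4 and 43.8 in SIX2- cells (0.44, adjusted p = 0.527, and 0.25 without NZC 2), with overlapping groups. SIX2+ cells held 21.5, 20.9 and 25.9 of Gdnf. Gfra1, the GDNF co-receptor, which stood on the ureteric list, was at 19.9, 24.1 and 35.2 in NZC and 4.85, 6.29 and 8.71 in SIX2- cells (-1.84, SE 0.27, adjusted p = 0.0564, and 0.0489 with the replicate block, which called it lower, with a range of 0.00228 to 0.338 over all alternatives). Its SIX2+ level was 42.4, 38.7 and 47.4, above every NZC library.

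**Figure D2:**
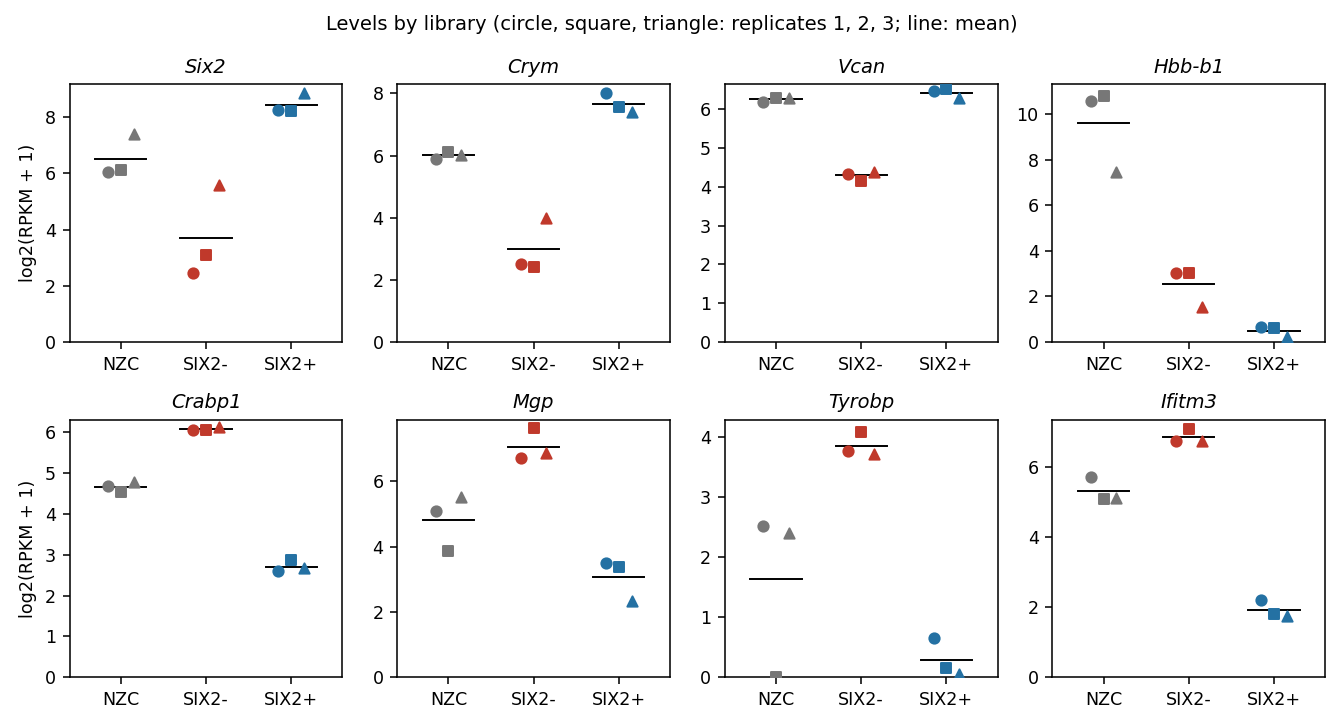
The vertical axis of each panel is log2(RPKM + 1) in the 3 NZC, 3 SIX2- and 3 SIX2+ libraries; symbols mark replicate numbers and lines group means. Six2, Crym, Vcan and Hbb-b1 lay lower in every SIX2- than in every NZC library and Crabp1, Mgp, Tyrobp and Ifitm3 higher, while in SIX2+ cells Six2 and Crym stood at their highest and Hbb-b1, Crabp1, Mgp and Ifitm3 at their lowest.

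The largest differences of the whole comparison were those of the adult globin genes, which encode the chains of haemoglobin in red blood cells. Their promoters carry classical boxes, named CACCC box, CCAAT box and TATA box, bound in red cell precursors by KLF1 and other factors. The 150 bases before the RefSeq start of 3 globin genes and of Alas2, the erythroid enzyme that begins haem synthesis, are shown because all of them lay lower in every SIX2- than in every NZC library. Capitals mark a match on either strand to the CACCC motif, to the CCAAT motif, to the TATAA motif or to the GATAA motif.
Hbb-bs: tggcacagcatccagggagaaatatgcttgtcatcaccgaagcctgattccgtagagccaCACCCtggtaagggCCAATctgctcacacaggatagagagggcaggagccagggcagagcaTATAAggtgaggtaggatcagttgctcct
Hbb-bt: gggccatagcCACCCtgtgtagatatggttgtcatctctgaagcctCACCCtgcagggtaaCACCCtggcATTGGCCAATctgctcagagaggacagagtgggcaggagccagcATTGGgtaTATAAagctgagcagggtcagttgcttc
Hba-a1: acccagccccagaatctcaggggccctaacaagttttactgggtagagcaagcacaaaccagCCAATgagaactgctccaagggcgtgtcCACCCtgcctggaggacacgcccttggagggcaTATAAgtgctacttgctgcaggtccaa
Alas2: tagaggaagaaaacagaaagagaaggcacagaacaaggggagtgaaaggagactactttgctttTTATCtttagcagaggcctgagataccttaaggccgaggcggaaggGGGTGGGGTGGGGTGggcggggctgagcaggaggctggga
The windows are chr7:103827929-103828078 and chr7:103813924-103814073 on the minus strand, and chr11:32283522-32283671 and chrX:150547267-150547416 on the plus strand (RefSeq, GRCm38.p6). Each of the 3 globin windows held a CACCC match, a CCAAT match and a TATAA match, which 1.10% of 32851 RefSeq promoter windows of this length held together. Singly, CACCC stood in 37.4%, CCAAT in 24.5% and TATAA in 14.2% of windows. The Alas2 window held 3 matches to CACCC and 1 to GATAA, a motif of GATA factors that stood in 13.3% of windows. The matches are letters in a window and describe no binding.

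Hbb-b1, an adult beta-globin gene, was at 1509.9, 1742 and 173 RPKM in NZC libraries 1, 2 and 3 and at 7.10, 7.22 and 1.86 in SIX2- libraries. The lowest NZC library lay far above the highest SIX2- library, and in both groups library 3 was lowest. The log2 difference was -7.07 (SE 0.89, adjusted p = 0.0514), which missed the threshold, and it passed without NZC 2 (-6.48, SE 0.94, adjusted p = 0.04999) and with the replicate block (adjusted p = 0.0355, with a range of 0.000899 to 0.283 over all alternatives). The name Hbb-b1 was not matched to the annotation used here, and no position is given for it.

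The other adult beta-globin names lay on the same side. Hbb-bs was at 868, 928 and 95.6 in NZC and 3.78, 5.29 and 0.991 in SIX2- cells (-6.77, SE 0.89, adjusted p = 0.0514, and 0.04999 without NZC 2, where it was called, with a range of 0.00103 to 0.283 over all alternatives). Hbb-bt was at 409, 223 and 32.0 against 2.39, 1.63 and 0.411 (-5.96, SE 0.87, adjusted p = 0.0564, and 0.0489 with the replicate block, which called it lower, with a range of 0.00157 to 0.308 over all alternatives), and Hbb-b2 repeated the Hbb-bt values in every library and was counted once. The transcripts of Hbb-bs and Hbb-bt are identical at 92.2% of aligned bases, so reads may have been split between the beta-globin names.

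The alpha-globin genes on chromosome 11 were likewise lowest in library 3 of both groups. Hba-a1 was at 830.1, 799.6 and 68.7 in NZC and 4.17, 5.44 and 1.25 in SIX2- cells (-6.41, SE 0.95, adjusted p = 0.0564), and Hba-a2 at 798, 1015 and 69.0 against 4.32, 3.81 and 0.872 (-6.73, SE 0.99, adjusted p = 0.0564). Transcripts of these copies are identical at 537 of 538 aligned bases, so their separate values are uncertain. With the replicate block both were called lower (adjusted p = 0.0489 each, with ranges of 0.00171 to 0.308 and 0.00163 to 0.308 over all alternatives). Together the globins made up 1.20%, 1.11% and 0.118% of the summed values in NZC libraries 1, 2 and 3 and 0.00530%, 0.00549% and 0.00145% in SIX2- libraries.

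Other red cell genes gave lower levels. Alas2 was at 25.4, 12.0 and 5.75 in NZC and 0.172, 0.0583 and 0.0875 in SIX2- cells (-3.58, SE 0.46, adjusted p = 0.0514). It was called without NZC 2 (-3.59, SE 0.53, adjusted p = 0.04999, range 0.00421 to 0.295). Hbb-y, an embryonic beta-like globin, was at 5.25, 1.04 and 1.66 against 0.183, 0.149 and 0.320 (-1.41, adjusted p = 0.173). Of 20 genes on the erythroid list 10 were tested and 7 separated completely downward (background 12.4%). Alas2 and Hbb-y, among the 7, were under 1 in every SIX2- library and passed the limit for testing through NZC alone, which fixed their direction. The rest of the 7 were the adult globins above. Their copies may share reads, so they are not separate witnesses and the count does not describe red cell genes at large. Car2, also on the list, overlapped between the groups (0.12, and 0.098 without NZC 2). The median log2 difference of the 10 was -4.77, or -4.62 without NZC 2, and it describes these members. Without the replicate block none of the 10 was called with 6 libraries in limma's test, at 7 lower and 1 higher with an unadjusted p under 0.05. With the block the adult globins were called lower, and 3 members were called lower without NZC 2. A further 8 members stood in the table below the limit for testing, among them the red cell regulators Gata1 and Klf1, with highest values over the 6 libraries of 0.0971 and 0.444. Epor, the erythropoietin receptor, went the other way, at 2.97, 0.704 and 3.18 in NZC and 5.13, 6.68 and 6.61 in SIX2- cells (1.22, adjusted p = 0.174, and 0.80 without NZC 2). Fech, the last enzyme of haem synthesis, which most cells use, overlapped between the groups at 16.0, 24.8 and 13.2 against 15.02, 12.6 and 12.8 (-0.35, adjusted p = 0.438, and -0.11 without NZC 2).

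The sorted SIX2+ cells held still less Hbb-b1 than the SIX2- cells, at 0.564, 0.530 and 0.166. Cells sorted in the same study on GFP instead, from Six2TGC/+ kidneys of the same strain and day, held Hbb-b1 at 431, 2360.3 and 4546 in the GFP- fraction and 28.8, 23.7 and 6.36 in the GFP+ fraction. In that sort, on a reporter driven by Six2 regulatory sequence, the fraction without the marker thus held Hbb-b1 within or above the range of unsorted NZC. The part of the handling of the cells in the globin difference was not tested.

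**Figure D3:**
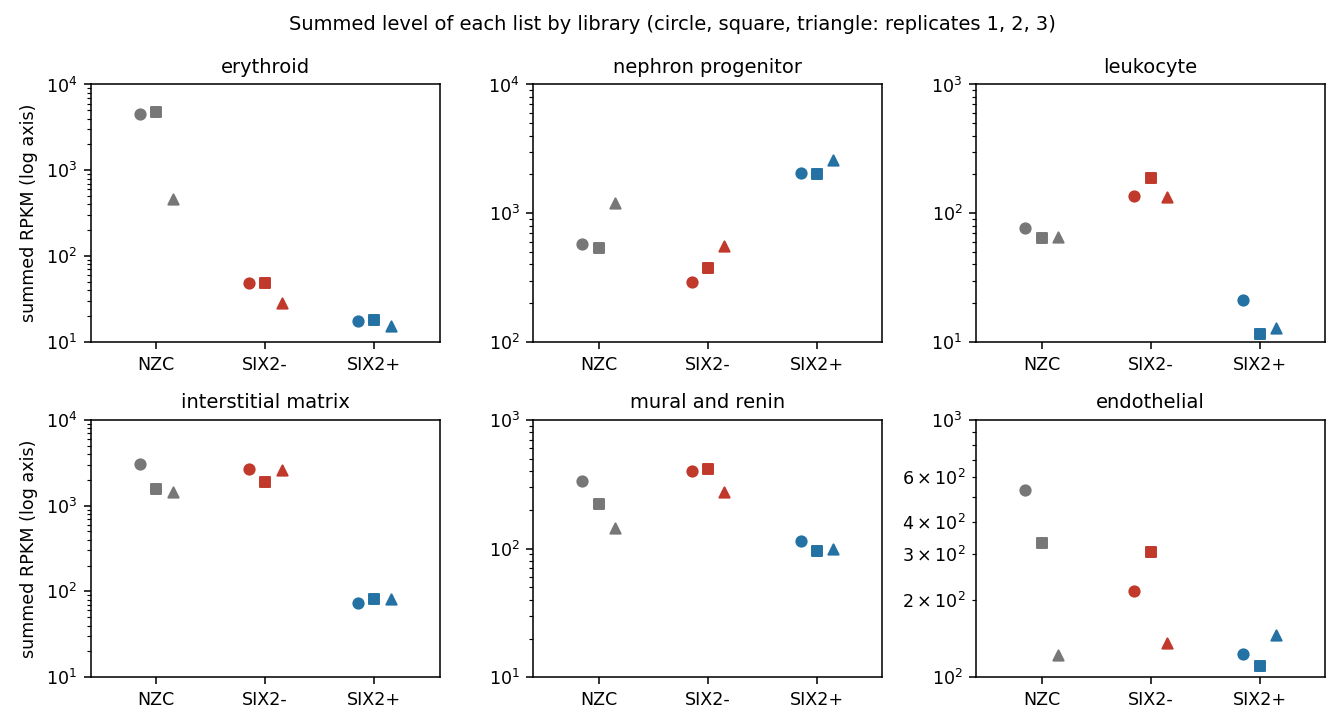
Summed RPKM of the genes on each list (log axis) in NZC, SIX2- and SIX2+ libraries, with symbols for replicate numbers. The erythroid sum ran from 468 to 4751 in NZC and from 28.8 to 48.9 in SIX2- cells, and the leukocyte sum from 63.9 to 76.5 in NZC and from 134 to 188 in SIX2- cells.

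Of the 2 genes called higher with all 6 libraries, Crabp1 was the gene with a standard symbol. Crabp1 (chr9:54764748-54773110, plus strand) encodes a cytoplasmic retinoic acid-binding protein and is known from stromal cells of the cortex. It was at 24.5, 22.1 and 26.3 RPKM in NZC and 65.7, 65.0 and 68.6 in SIX2- cells, 2.73 times higher in the means, with no overlap and little spread in either group. The log2 difference was 1.42 (SE 0.13, adjusted p = 0.0460), and 1.35 (SE 0.11, adjusted p = 0.0276) without NZC 2. With the replicate block its adjusted p was 0.0646, and over all alternatives it ran from 0.000254 to 0.283. SIX2+ cells held 5.06, 6.29 and 5.32. The other gene called higher, 3110039I08Rik, is a non-coding transcript on chromosome 9, at 4.80, 2.96 and 3.42 in NZC and 19.5, 14.4 and 14.3 in SIX2- cells (1.86, SE 0.22, adjusted p = 0.0487), and its name, a clone identifier, is of the kind left out by the rule for naming genes.

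Mgp, an inhibitor of calcification secreted by vascular and stromal cells, had a larger difference and a wider spread. It was at 32.7, 13.4 and 44.6 in NZC and 104, 195 and 114 in SIX2- cells, 4.56 times higher in the means. Every SIX2- library was above every NZC library. The log2 difference was 2.25 (SE 0.44, adjusted p = 0.0883), and 1.77 (SE 0.30, adjusted p = 0.0557) without NZC 2, so it was not called in either; the range over all alternatives was 0.00380 to 0.454. SIX2+ cells held 10.3, 9.41 and 4.08.

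Leukocyte genes, here mostly those of macrophages, lay higher in SIX2- cells as a group. Of 20 listed genes 18 were tested and 12 separated completely upward (background 17.0%), 0 downward; without NZC 2, 15 separated upward (background 23.5%). The median log2 difference was 1.12, or 0.89 without NZC 2, beside 0.10 and 0.035 for all tested genes, and 17 of the 18 were positive. None was called with 6 libraries in limma's test, while 13 had an unadjusted p under 0.05, all of them higher. Tyrobp (chr7:30413760-30417585), a signalling adaptor of myeloid receptors, was at 4.77, 0 and 4.28 in NZC and 12.6, 16.0 and 12.2 in SIX2- cells. The value listed at 0 came from the shallow NZC 2. Tyrobp was called without that library (1.39, SE 0.16, adjusted p = 0.0475) and not with it (2.21, SE 0.64, adjusted p = 0.165), with a range of 0.00553 to 0.571 over all alternatives.

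C1qb, a chain of complement C1q made by tissue macrophages, was at 7.19, 13.6 and 6.996 in NZC and 13.8, 19.7 and 16.1 in SIX2- cells. It separated narrowly and was called without NZC 2 (1.10, SE 0.17, adjusted p = 0.04999), with an adjusted p of 0.199 over 6 libraries and a range of 0.0108 to 0.601 over all alternatives. C1qa was at 6.14, 4.76 and 5.97 against 9.999, 15.7 and 10.9 (0.98, adjusted p = 0.108), and Fcer1g, an Fc receptor chain, at 3.66, 1.96 and 3.44 against 8.28, 14.49 and 7.22 (1.42, adjusted p = 0.105). Csf1r, the receptor that macrophages need to survive, was at 3.99, 3.57 and 4.60 against 6.26, 8.78 and 7.69 (0.76, adjusted p = 0.146). Lyz2, lysozyme of myeloid cells, was at 13.7, 1.52 and 5.38 against 23.0, 24.5 and 14.53 (1.78, adjusted p = 0.196, and 1.13 without NZC 2). SIX2- library 2 was the highest of its group in each of these genes. Ptprc and Itgam, general leukocyte and myeloid surface markers, were below the limit for testing, with highest values of 1.02 and 0.705 over the 6 libraries. Of the platelet and megakaryocyte list 2 of 8 genes were tested, with a median of 1.26, or 0.78 without NZC 2. Of these 2 genes, 1 was under 1 in every NZC library, so that the limit for testing had fixed its direction. Pf4, a platelet chemokine also made by macrophages, was at 4.197, 0 and 3.76 against 9.52, 10.05 and 5.60 (1.65, adjusted p = 0.232, and 0.88 without NZC 2, where it was listed at 0).

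Several further genes were called higher without NZC 2. Ifitm3, an interferon-induced membrane protein, was at 50.8, 32.8 and 33.4 in NZC and 106, 133 and 105 in SIX2- cells (1.45, SE 0.21, adjusted p = 0.04999; 1.55 and 0.0514 with 6 libraries). Its neighbour Ifitm1, chosen after its values were seen, was at 15.4, 12.3 and 12.4 against 33.0, 32.0 and 31.7 (1.16, SE 0.13, adjusted p = 0.0475 without NZC 2). Fhl2, a LIM-domain cofactor of contractile and stromal cells, was at 48.6, 33.6 and 40.8 against 125, 116 and 98.5 (1.32, SE 0.15, adjusted p = 0.0475 without NZC 2). Clcf1, a cytokine of the interleukin 6 family, was at 2.71, 0.154 and 3.06 against 7.78, 10.1 and 7.98 (1.30, SE 0.16, adjusted p = 0.0475 without NZC 2). Over all alternatives the adjusted p ran from 0.00211 to 0.308 for Ifitm3, 0.00316 to 0.308 for Ifitm1, 0.00285 to 0.308 for Fhl2 and 0.00514 to 0.553 for Clcf1. SIX2+ cells held less Ifitm3 than every NZC library, at 3.61, 2.50 and 2.35. Rsc1a1 had the largest difference called upward without NZC 2 (1.94, SE 0.14, adjusted p = 0.0276, range 0.00108 to 0.340). But this intronless gene overlaps annotated exons of Ddi2 on the same strand, and how reads were shared between them is uncertain.

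Non-coding RNAs of the imprinted Dlk1-Dio3 domain on chromosome 12, expressed from the maternal chromosome, lay on the same side. Meg3 was at 7.42, 8.45 and 6.21 in NZC and 24.1, 13.6 and 25.6 in SIX2- cells (1.36, SE 0.26, adjusted p = 0.0835), and Mirg, which hosts a microRNA cluster, at 1.63, 0.744 and 0.974 against 5.71, 3.55 and 4.36 (1.39, SE 0.26, adjusted p = 0.0821). Both separated completely. Rian, which lies between them, overlapped, at 52.5, 17.2 and 24.8 against 62.0, 34.6 and 48.9 (0.72, adjusted p = 0.368, and 0.38 without NZC 2). SIX2+ cells held 0.694, 0.364 and 0.436 of Meg3.

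The stromal lists as wholes had medians near that of all genes. Of 18 cortical stromal progenitor genes, all tested, Crabp1 was called and 4 separated upward and 1 downward, with a median log2 difference of 0.13, or 0.016 without NZC 2. Foxd1, the transcription factor that defines these progenitors, was at 52.5, 34.3 and 58.4 in NZC and 63.9, 51.4 and 103 in SIX2- cells (0.55, SE 0.30, adjusted p = 0.359, and 0.33 without NZC 2), overlapping between the groups. Aldh1a2, which makes retinoic acid, was at 254, 146 and 257 against 294, 297 and 436 (0.66, adjusted p = 0.266, and 0.39 without NZC 2), and Fibin, a secreted protein, at 16.0, 5.45 and 17.3 against 26.6, 27.2 and 33.1 (1.24, adjusted p = 0.186, and 0.76 without NZC 2). Both separated completely without reaching the threshold. Of 13 tested genes of the retinoid pathway, 1 was called higher, again Crabp1, and 0 lower, with a median of 0.19, or 0.28 without NZC 2.

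Of 21 interstitial matrix genes only Mgp separated with 6 libraries, and the median was 0.16, or -0.021 without NZC 2. Col3a1, a fibrillar collagen of the interstitium, was at 629.8, 286 and 289 in NZC and 511, 315 and 461 in SIX2- cells (0.17, adjusted p = 0.806). Its groups overlapped, and the difference changed sign to -0.021 without NZC 2. Ecm1, a matrix glycoprotein, was at 123, 58.7 and 35.0 against 162, 129.8 and 119 (1.09, adjusted p = 0.234), with groups that overlapped narrowly. NZC library 1 was the highest of its group for both.

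Mural cell genes, those of pericytes, smooth muscle and renin cells, had a median difference of 0.49 over 15 tested, or 0.60 without NZC 2, with 3 separating upward and 0 called (4 higher and 0 lower at an unadjusted p under 0.05 in limma's test). Pdgfrb, the pericyte growth factor receptor, was at 39.9, 26.6 and 31.3 in NZC and 61.2, 64.9 and 69.1 in SIX2- cells (0.99, SE 0.18, adjusted p = 0.0769). Kcnj8, a potassium channel of pericytes, was at 9.49, 5.003 and 4.60 against 24.3, 19.1 and 11.9 (1.40, SE 0.33, adjusted p = 0.123). Acta2, smooth muscle actin, overlapped at 88.1, 49.4 and 16.3 against 108, 124 and 59.1. Endothelial genes gave the opposite sign without separating: 16 of 18 differences were negative, the median was -0.46, or -0.53 without NZC 2, and 0 separated or reached an unadjusted p under 0.05. Kdr, a receptor for VEGF, was at 22.8, 12.99 and 2.83 in NZC and 3.01, 5.67 and 1.23 in SIX2- cells, and Pecam1 at 35.8, 18.8 and 3.98 against 6.26, 12.5 and 2.32. Library 3 was the lowest of both groups in both genes, and the groups overlapped, while within each same-numbered pair the SIX2- value was the lower. This held for all 3 pairs in 7 of the 18 endothelial genes, and the opposite for 0. The same count was not made over all tested genes, so the 7 of 18 has no background beside it. With the replicate block the adjusted p was 0.160 for Kdr and 0.199 for Pecam1, with ranges of 0.0359 to 0.571 and 0.0457 to 0.766 over all alternatives.

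**Figure D4:**
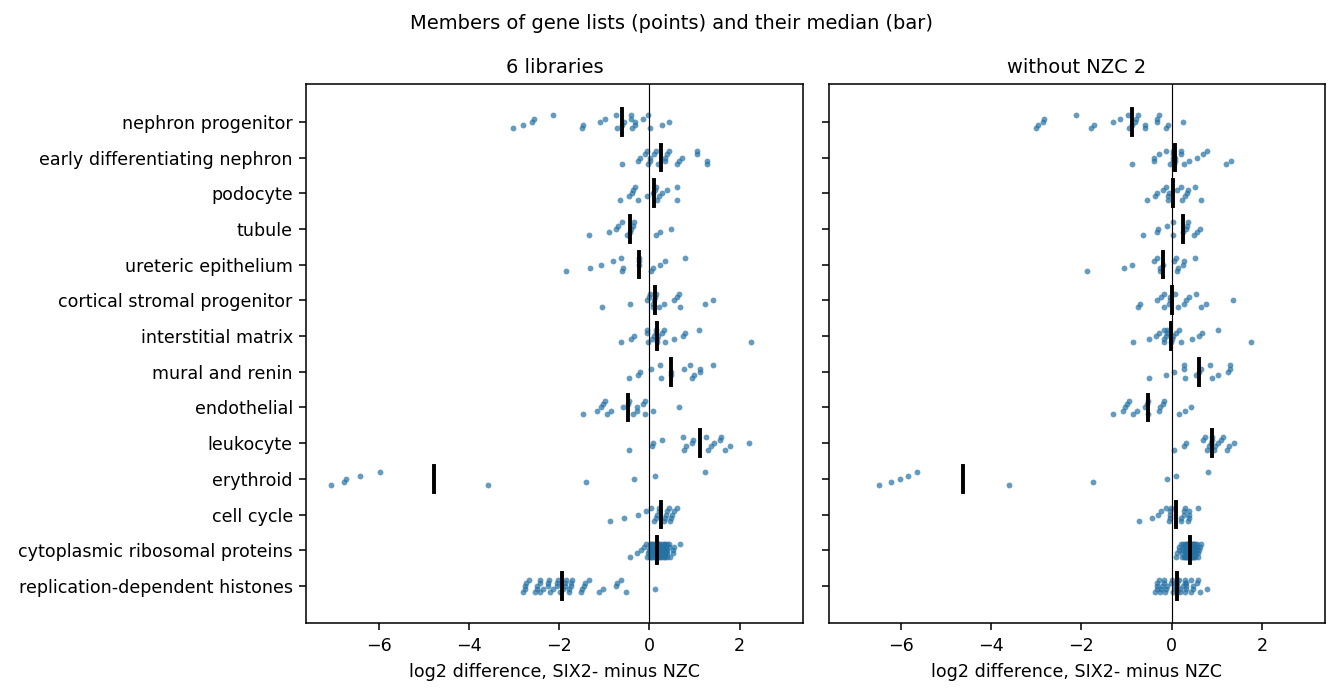
Each point is a tested member of a list and each bar the list's median; the horizontal axis is the log2 difference, SIX2- minus NZC, with 6 libraries on the left and without NZC 2 on the right. Erythroid and nephron progenitor medians lay at -4.77 and -0.61 and the leukocyte median at 1.12, and the histone median moved from -1.94 to 0.12 when NZC 2 was left out.

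Genes of the nephron's later stages lay mostly near the level of the whole zone. In the list of early differentiating nephron, 4 of 22 tested genes separated upward and 0 downward, none was called (4 higher and 0 lower at an unadjusted p under 0.05 in limma's test) and the median was 0.26. Without NZC 2 the median was 0.064 and 1 gene separated downward. Dkk1, a Wnt inhibitor, was at 11.0, 16.1 and 18.6 in NZC and 33.6, 40.6 and 37.8 in SIX2- cells (1.27, SE 0.21, adjusted p = 0.0710). Osr2, a transcription factor of the forming nephron and its surroundings, was at 20.9, 12.6 and 10.6 against 35.9, 54.4 and 23.1 (1.28, SE 0.35, adjusted p = 0.159). Wnt4, the signal that drives progenitors to become epithelium, overlapped at 37.4, 42.9 and 28.04 against 28.6, 53.9 and 40.3 (0.15, and 0.28 without NZC 2). Podocyte genes had a median of 0.11, or 0.027 without NZC 2, with 1 of 16 separating. No tubule gene separated among 13, and their median turned from -0.43 to 0.25 without NZC 2. Col4a4, a chain of the glomerular basement membrane, was at 2.33, 4.70 and 4.84 against 1.18, 1.52 and 4.12 (-0.66, adjusted p = 0.386). Slc12a1, the salt carrier of the thick limb, was at 1.97, 8.63 and 0.767 against 1.03, 0.190 and 0.313 (-1.33, adjusted p = 0.294, and -0.64 without NZC 2), and NZC 2 held the highest value.

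Of 15 ureteric epithelium genes tested, 4 separated downward and 0 upward, with a median of -0.24 (-0.18 without NZC 2) and no calls (1 higher and 3 lower at an unadjusted p under 0.05 in limma's test). Gfra1, given above, was among the 4 and had the largest difference on the list (-1.84). Its SIX2+ levels lay above every NZC library, and it was called lower with the replicate block. Ret, the GDNF receptor of the ureteric tip, was at 3.18, 6.23 and 4.40 in NZC and 1.66, 1.02 and 2.25 in SIX2- cells (-1.08, SE 0.29, adjusted p = 0.155). Calb1, a calcium-binding protein of the ureteric tree, was at 11.9, 25.3 and 16.4 against 9.88, 3.83 and 6.10 (-1.33, SE 0.37, adjusted p = 0.159). Neither gene was called, and SIX2+ cells held still less of both, Ret at 0.0697, 0.0357 and 0.126.

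Vcan had the lowest adjusted p of the comparison. Vcan (chr13:89655312-89742509, minus strand), a large proteoglycan of loose matrix, was at 72.1, 76.9 and 76.8 RPKM in NZC and 19.2, 16.8 and 19.9 in SIX2- cells. The groups were tight and 4.03 times apart in their means, with a log2 difference of -1.96 (SE 0.14, adjusted p = 0.0168; 0.0276 without NZC 2, 0.0489 with the replicate block, range 0.000466 to 0.279 over all alternatives). SIX2+ cells held 87.4, 90.8 and 77.2, near or above NZC. Slc12a2, a sodium, potassium and chloride carrier named as a called gene beyond the 10 of the rule, had the same pattern, at 47.4, 32.0 and 37.2 in NZC, 12.4, 11.9 and 12.9 in SIX2- and 56.8, 54.3 and 34.3 in SIX2+ cells (-1.55, SE 0.18, adjusted p = 0.0460, and 0.0705 with the replicate block, which ended the call). Megf9, a membrane protein with EGF-like repeats chosen after its values were seen, was at 9.01, 11.7 and 15.03 against 1.38, 1.64 and 3.14, and was called lower without NZC 2 (adjusted p = 0.04999) and with the block (0.0489), with a range of 0.001003 to 0.308 over all alternatives.

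The 9 other genes called lower with 6 libraries were below every NZC library in both sorted fractions. Zbed6, a DNA-binding repressor, was at 14.6, 29.1 and 15.4 in NZC and 0.672, 1.08 and 2.38 in SIX2- cells (-3.12, SE 0.36, adjusted p = 0.0460), and SIX2+ cells held 0.642, 1.23 and 1.46. Zbed6 overlaps annotated exons of Zc3h11a on the same strand, so its reads may be shared with that gene. Lnpep, an aminopeptidase of vesicles, was at 9.21, 14.9 and 7.67 in NZC, 1.13, 1.23 and 1.53 in SIX2- and 0.938, 1.48 and 1.10 in SIX2+ cells (-2.29, SE 0.26, adjusted p = 0.0460). Uhmk1, a kinase, was at 6.08, 9.70 and 7.90 in NZC, 0.766, 0.844 and 1.34 in SIX2- and 0.668, 0.799 and 1.13 in SIX2+ cells (-2.16, SE 0.24, adjusted p = 0.0460). N4bp2, Arl5b, Arhgap5, Mob1a, Alg10b and Tnpo1 were called at log2 differences from -2.11 to -1.34, each with an adjusted p of 0.0460, and their SIX2+ values lay below every NZC value. Cbl, a ubiquitin ligase of receptor signalling, was called without NZC 2 (7.67, 15.8 and 12.0 against 0.722, 0.658 and 1.83, a log2 difference of -2.40, SE 0.30, adjusted p = 0.0475, range 0.000655 to 0.295). Tgoln2 was also called lower without NZC 2 (-2.40, SE 0.35, adjusted p = 0.04999, range 0.00437 to 0.476), but it has a close copy, Tgoln1, and values far below 1 read in SIX2- libraries 1 and 2, so the division of reads between the copies is uncertain. With the replicate block these 9 genes missed the threshold, with adjusted p of 0.0577 for N4bp2, 0.0721 for Arl5b and 0.0705 for Zbed6, Lnpep, Uhmk1, Arhgap5, Mob1a, Alg10b and Tnpo1. The highest adjusted p over all alternatives was 0.283 for each of the 9, and the lowest ran from 0.000254 for Uhmk1 to 0.00165 for Tnpo1. Of the 107 genes called lower without NZC 2, 76 had all SIX2+ values below NZC libraries 1 and 3, and 15 had all above. Over all 12233 tested genes, 3699 had all SIX2+ values below both of these libraries and 3627 had all above. For the 107 genes, as for the 9 above, the SIX2+ contrast shares its NZC libraries with the call. In the GFP sort both fractions held Zbed6 at 10.8 to 23.2 and Lnpep at 4.67 to 11.4, ranges that overlapped those of NZC and reached below them. Of the 107 genes, 84 had all GFP+ and GFP- values above all SIX2- values, against 884 of all 12233 tested. That contrast shares its SIX2- libraries with the call.

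The genes called lower had long transcripts. Over protein-coding genes with a GENCODE transcript, the median transcript length was 3003.5 bases for 11588 tested genes, 7277 bases for 100 genes called lower without NZC 2 and 1643.5 bases for 32 called higher. The stretch after the stop codon had medians of 979, 3521.5 and 222.5 bases. Cbl and Lnpep, for example, have 8469 and 8339 bases after the stop codon, and Crabp1 has 234. Whole transcripts are 12427 bases long in Vcan and 6617 in Nell1, in the longest group below. That of Crabp1, at 802 bases, falls in the shortest. With genes in 5 groups by transcript length, the median log2 difference was 0.31 in the shortest (216 to 1698 bases), 0.26, 0.14 and -0.0074 in the next, and -0.32 in the longest (4937 bases and more). The longest group, with 2317 of the 11588 genes, held 77 of the 100 called lower without NZC 2 and 0 of the 32 called higher. Each same-numbered pair of libraries gave a negative median in the longest group, at -0.35, -0.34 and -0.29 for replicates 1, 2 and 3, and a positive median in the shortest, at 0.35, 0.39 and 0.19. SIX2+ cells minus the same NZC libraries gave 0.28 in the shortest and -0.34 in the longest group; that contrast shares its NZC libraries with this one. The part of transcript length in the called genes was not tested.

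**Figure D5:**
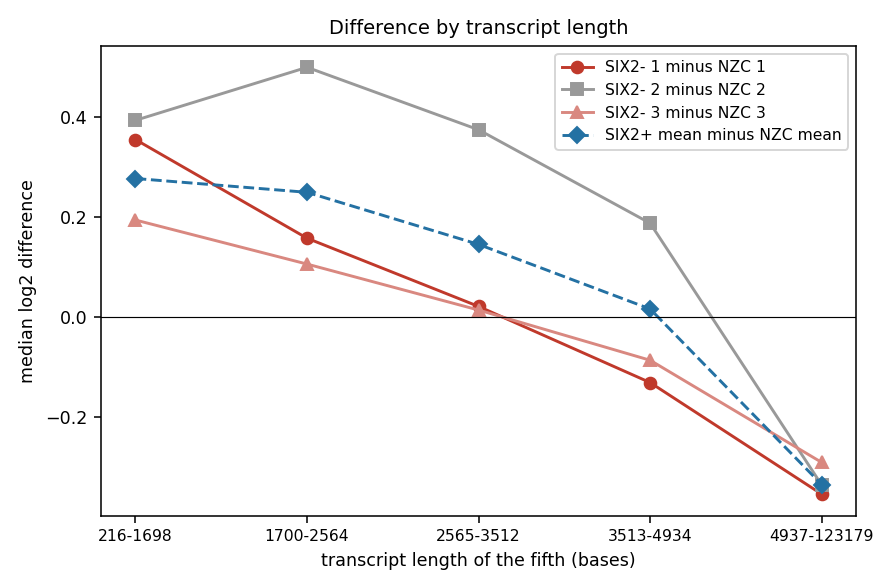
The horizontal axis gives 5 groups of protein-coding genes by transcript length in bases and the vertical axis the median log2 difference; solid lines are the 3 same-numbered pairs of SIX2- and NZC libraries and the dashed line is SIX2+ minus NZC, which uses the same NZC libraries. All 4 lines lay above 0 in the shortest group, between 0.19 and 0.39, and below 0 in the longest, between -0.35 and -0.29.

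Genes of cytoplasmic ribosomal proteins have short transcripts (median 838 bases over 79 genes). With 6 libraries 16 of 80 separated upward, near the background of 17.0%, with a median of 0.17. Without NZC 2, 60 of 80 did (background 23.5%), with a median of 0.40. The group of shortest transcripts above had a median of 0.31 with 6 libraries and 0.31 without NZC 2. None of the 80 ribosomal protein genes was called in either fit, at 7 higher and 0 lower with an unadjusted p under 0.05 over 6 libraries in limma's test. Rps27l, the member with the largest difference, was at 98.3, 73.8 and 114 in NZC and 166, 162 and 129 in SIX2- cells (0.69, adjusted p = 0.169). Glycolytic genes had a median of 0.19 over 18 tested, or 0.11 without NZC 2, with 1 separating each way; Aldoa, an enzyme of the pathway, was at 149, 151 and 182 against 186, 223 and 254 (0.45, adjusted p = 0.236).

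In the hedgehog, Wnt, FGF and posterior Hox lists limma's test called 0 genes with 6 libraries, at an unadjusted p under 0.05 in 1 gene each way for hedgehog, FGF and Hox and in 2 lower for Wnt, and it called Hoxd12 without NZC 2. Ptch1, the hedgehog receptor and target, was at 23.7, 21.8 and 18.0 in NZC and 4.06, 3.69 and 7.74 in SIX2- cells (-1.90, SE 0.27, adjusted p = 0.0564) and was low in SIX2+ cells too, at 3.56, 5.96 and 9.13. Its list had a median of 0.11 over 9 genes, with 2 separating downward and 0 upward. Without NZC 2 the median turned to -0.17, with 3 separating downward and 1 upward. Znrf3, a Wnt feedback ligase, was at 5.49, 10.1 and 5.07 against 3.02, 3.68 and 3.44 (-0.80, adjusted p = 0.199, and -0.52 without NZC 2), and the Wnt targets had a median of -0.025, or -0.11 without NZC 2. Il17rd, an FGF antagonist, was at 9.49, 12.3 and 15.2 against 4.12, 8.11 and 7.63 (-0.83, adjusted p = 0.201), and the FGF targets had a median of -0.14, or -0.30 without NZC 2. Among 11 posterior Hox genes the median was -0.13, or -0.26 without NZC 2, and Hoxd12 was called lower without NZC 2: 5.01, 1.52 and 5.48 in NZC against 0.537, 0.556 and 1.42 in SIX2- cells (-1.80, SE 0.24, adjusted p = 0.0475), with 12.8, 8.55 and 10.9 in SIX2+ cells. With 6 libraries its adjusted p was 0.175, with a range of 0.00125 to 0.571 over all alternatives.

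Proliferation genes split. Of 20 cell cycle genes 6 separated upward and 3 downward, with a median of 0.26 and no calls (3 higher and 2 lower at an unadjusted p under 0.05 in limma's test). Without NZC 2, 7 separated upward and 4 downward, with a median of 0.0895. Cenpf, a large kinetochore protein, was at 15.6, 22.8 and 18.3 in NZC and 7.99, 10.9 and 10.6 in SIX2- cells (-0.87, adjusted p = 0.119), and Mki67 at 60.9, 86.0 and 71.4 against 42.7, 50.9 and 52.5 (-0.56, adjusted p = 0.182). Birc5, a short mitotic gene, was at 23.1, 24.9 and 23.9 against 34.7, 39.6 and 33.0 (0.55, adjusted p = 0.136). The transcripts of Cenpf and Mki67 are 11130 and 10061 bases long and that of Birc5 947.

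Of 23 immediate early and heat shock genes, 16 were highest in library 3 of both groups, a pattern not counted over all tested genes. Their median difference was 0.31, or -0.086 without NZC 2. Fos, an immediate early gene, was at 246, 127 and 638 in NZC and 301, 185 and 703 in SIX2- cells, and Hspa1a, the inducible heat shock protein, at 11.2, 27.4 and 143 against 12.2, 16.3 and 102. Library 3 was the highest in both groups for both genes, and the groups overlapped (0.32, adjusted p = 0.810, and -0.36, adjusted p = 0.869, or -0.22 and -0.55 without NZC 2). Hspb1, a small heat shock protein, had the largest difference on the list, at 15.5, 12.5 and 33.0 against 21.7, 38.6 and 62.1 (0.97, adjusted p = 0.307). None of 23 genes on this list was called, at 1 higher and 0 lower with an unadjusted p under 0.05 in limma's test.

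Replication-dependent histone genes, whose messages end in a stem-loop and carry no poly(A) tail, gave differences that came with NZC 2. With it, 41 of 42 tested members were negative and the median was -1.94; without it the median was 0.12. Hist1h4m was at 1.69, 664 and 4.48 in NZC and 1.61, 2.75 and 1.99 in SIX2- cells (-2.80, and -0.32 without NZC 2). No histone was called in either fit (0 at an unadjusted p under 0.05 with 6 libraries in limma's test). Among neural and glial genes, 5 of 11 were tested, with a median of -0.23, or -1.28 without NZC 2; Elavl4, a neuronal RNA-binding protein, was at 2.43, 0.717 and 4.60 in NZC, 0.615, 0.437 and 1.17 in SIX2- and 8.36, 9.07 and 6.19 in SIX2+ cells (-0.90, adjusted p = 0.321). None of the 15 listed mitochondrially encoded genes stood in the table.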

How the data were processed

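Libraries were made with Kapa's stranded mRNA kit, per the labels' protocols. TopHat2, Partek and the build mm10 are named per the submitters' processing notes; for the annotation and any use of strand in counting, the answer is not given in the sources used here. What the authors deposited is 1 value per gene and library, under a title that says TPM, and the deposited values behave as RPKM: column sums had a coefficient of variation of 7.99%, and 2.70% after multiplication by exonic kilobases. The test planned for TPM was kept for RPKM. Depth was estimated from the commonest product of value and transcript length among values under 1, taken to be 1 read, and is approximate. A further 1122 values lay above 0 but under 0.001, which whole reads do not give, so count models were left aside.

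Groups were compared on log2(RPKM + 1) with limma 3.58.1 in R 4.3.3 (tables read with the package data.table, version 1.17.8; 2 group means, eBayes with intensity trend, two-sided, Benjamini-Hochberg over all tested genes), with 4 residual degrees of freedom, or 3 without NZC 2. The script was run on simulated data whose spread per gene came from the libraries other than NZC 2. That run does not cover the makeup of NZC 2, and its outcome is not given here. Replicate numbers come from the titles. Deviations from group means of same-numbered SIX2- and NZC libraries correlated across genes (r = 0.42, 0.19 and 0.51), so the numbers were taken to pair the samples. The main fit was planned without this pairing, and its counts, SEs and adjusted p ignore it. The block is given where it changes a call. Lengths and positions are from GENCODE M21 (96.0% of names matched), promoters from RefSeq (GRCm38.p6), read with pandas 2.3.3 and numpy 2.4.6 under python 3.11.15; matplotlib 3.10.9 drew the figures. The members and the 26 gene lists were chosen with earlier results of these data known. Named were Six2, Mgp, Tyrobp and Hbb-b1, the 10 largest called genes per direction (6 without NZC 2) whose groups did not overlap and whose higher mean was 5 or more, leaving out predicted genes and clone names such as those ending in Rik, and from each list up to 4 called members, or the 1 with the largest difference, plus up to 2 called without NZC 2. Other genes were chosen after their values were seen. Names turned into dates (25) were not reported by name.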

Additional observations from a re-analysis of the deposited data

How the results depend on the processing

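Counts of called genes moved with nearly every choice. The 14 calls kept their sign under all 20 alternatives, but in each of the 14 the groups did not overlap. Leaving out libraries, or changing the pseudocount, filter, trend, weights or block, could therefore not turn it. The kept sign is thus no measure of stability. Given as higher and lower, the counts were 2 and 12 in the fit of 6 libraries. Leaving out a library in turn gave 0 to 35 higher and 0 to 107 lower. The replicate block gave 1 and 13, and the block with replicates 1 and 3 only 690 and 1048, with 1 residual degree of freedom. All 15 libraries in the fit gave 684 and 761, and library weights 962 and 977. A pseudocount of 0.1 gave 0 and 1, and of 5 gave 6 and 25. No filter gave 0 and 1, and a minimum of 5 gave 6 and 41. Quantile normalisation gave 5 and 18, median-of-ratios scaling 1 and 3, values rescaled to TPM 0 and 1, and no intensity trend 0 and 0 (1057 and 1118 at an unadjusted p under 0.05 in limma's test). Added after seeing the data, 14 libraries without NZC 2 gave 453 and 695, and leaving out NZC 2 with no trend 15 and 68. The cause of these changes was not tested.

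Of 89 single genes under 20 alternatives, 1346 values kept direction and side of the threshold, 255 passed it newly, 143 no longer passed and 27, of 7 genes, changed sign; none of the 7 was called with 6 libraries. Without NZC 2, Col3a1 stood at -0.021, Fos at -0.22, Rmrp at 0.97 and Rpph1 at 0.29, and both added alternatives gave the same values. Leaving out another library gave Col3a1 -0.014 (NZC 3), Fos -0.20 (SIX2- 3), Hspa1a 0.20, 0.0052 and 0.62 (SIX2- 1, SIX2- 2 and NZC 3) and Wnt4 -0.065 and -0.014 (SIX2- 2 and NZC 3). Leaving out each library in turn gave ranges of -0.021 to 0.55 for Col3a1, -0.22 to 0.94 for Fos, -1.28 to 0.62 for Hspa1a, -4.97 to 0.97 for Rmrp, -5.30 to 0.29 for Rpph1 and -0.065 to 0.38 for Wnt4. Library weights gave Col3a1 -0.34, Fos -0.78, Rmrp 0.93 and Rpph1 0.14, and quantile normalisation gave Col3a1 -0.049. The block with replicates 1 and 3 gave Malat1 0.19, Rmrp 0.69 and Rpph1 0.083. The replicate block called 11 of its 14 genes newly, the 5 adult globins given above (and the repeated name Hbb-b2), Spock2, Eya1, Megf9, Gfra1 and Cped1, and 11 of the 14 calls missed the threshold with it. Cped1 was at 31.4, 26.0 and 46.1 in NZC and 9.52, 6.83 and 15.04 in SIX2- cells, a log2 difference of -1.65. In limma's test its adjusted p was 0.0835 without the block and 0.0489 with it, with a range of 0.00201 to 0.443 over all alternatives.

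Depth limits NZC 2, where 1 read in a gene of 1 kilobase is worth 0.323 RPKM, against 0.0231 to 0.0378 in the other 5 libraries.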
